A study of Homo sapiens with 6 samples.

Results

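The Ikaros family holds 5 genes, IKZF1 to IKZF5, which were taken from the deposited tables by gene name, 5 of 58735 genes. They were followed in MOLT-3 cells, an established human line of T-cell acute lymphoblastic leukaemia, by RNA sequencing of polyadenylated RNA. Treatment was with compound E, which inhibits gamma-secretase, the protease that releases the active part of NOTCH receptors, and the controls received the solvent DMSO, with 3 libraries in each group. The cells of both groups were the same line, with no other agent or genetic change named in the labels. Dose and duration are not stated in those labels. They also do not say that replicates were separate cultures, so each p-value reflects only the variation among these libraries, which may be technical.

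Ikaros factors are zinc-finger proteins. Fingers near the amino terminus bind DNA at sites with the core GGGAA, and a pair at the carboxy terminus joins the members into dimers. In lymphocytes they recruit chromatin remodelling and deacetylase complexes and can both silence and keep active the genes they bind. RBPJ, the DNA-binding partner of the NOTCH intracellular part, prefers sites with TGGGAA, which contain the same core. In mouse thymocytes Ikaros restrains NOTCH-responsive genes such as Hes1, and in mouse T-cell leukaemia loss of Ikaros often accompanies activated Notch1.

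The shared core can be read in the promoters of HES1 and HES4, repressor genes switched on by NOTCH, and of IKZF1, which are shown for that reason. Each line gives the 250 bases before a RefSeq start, 5′ to 3′ on the gene's strand, on GRCh38, with TGGGAA in capitals. The windows are chr7:50304466-50304715 on the plus strand for IKZF1, chr3:194135898-194136147 on the plus strand for HES1 and chr1:1000098-1000347 on the minus strand for HES4. RefSeq has 3 start windows for IKZF1. The first is shown and is the only window of IKZF1 that holds TGGGAA. It lies downstream of the gene start that GENCODE gives, so it is inside the gene as placed by the coordinates below. The HES4 window also overlaps its gene, which GENCODE places from 998962 to 1000172, and the HES1 window reaches the gene start at 194136145.
IKZF1: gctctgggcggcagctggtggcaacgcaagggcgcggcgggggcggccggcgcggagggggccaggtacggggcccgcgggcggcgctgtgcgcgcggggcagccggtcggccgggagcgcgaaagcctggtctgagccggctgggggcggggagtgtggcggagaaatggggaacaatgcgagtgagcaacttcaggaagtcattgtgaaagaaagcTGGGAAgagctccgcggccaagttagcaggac
HES1: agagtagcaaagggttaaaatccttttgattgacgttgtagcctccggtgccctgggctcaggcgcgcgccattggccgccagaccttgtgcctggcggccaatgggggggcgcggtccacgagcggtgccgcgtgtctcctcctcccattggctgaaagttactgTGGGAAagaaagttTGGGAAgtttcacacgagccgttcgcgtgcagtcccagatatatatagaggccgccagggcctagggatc
HES4: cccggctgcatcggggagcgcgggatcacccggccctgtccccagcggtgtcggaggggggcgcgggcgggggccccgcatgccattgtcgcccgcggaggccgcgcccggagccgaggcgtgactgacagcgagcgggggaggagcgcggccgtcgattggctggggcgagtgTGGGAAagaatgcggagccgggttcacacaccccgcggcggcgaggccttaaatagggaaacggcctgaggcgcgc
TGGGAA began 32 bases before the start in IKZF1, 84 and 70 bases before it in HES1 and 76 bases before it in HES4. Over windows reaching from 250 bases before to 50 after a start, with both strands searched, TGGGAA was present in 24% and GGGAA in 65% of 35116 human promoters, and every TGGGAA is also a GGGAA. Promoters were found for 4 of the 5 family genes, and of their 10 windows 7 held GGGAA and 1, the IKZF1 window shown, held TGGGAA. Some windows of IKZF4 and those of IKZF5 overlap, so the same site can count in several windows. Among NOTCH-responsive genes, 11 of 14 had a window, and 4 of these held TGGGAA, in HES1, HES4, HES5 and HEY2. A match describes the letters of a window and shows neither binding nor its absence.

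The libraries held 17316138 to 19845114 counts each. Levels within a library are given as FPKM, the authors' counts scaled to gene length and library depth, and changes as log2 fold changes of compound E over DMSO from the counts. Over all genes, 6484 of 16926 tested (38.3%) passed an adjusted p of 0.05 in edgeR's quasi-likelihood test with Benjamini-Hochberg adjustment, 3206 of them (18.9%) higher and 3278 (19.4%) lower with compound E. Markers of the T lineage were all present, with a summed level of 1139 to 1157 FPKM with compound E and 1242 to 1260 FPKM with DMSO over 10 genes. Within this sum 4 markers were called higher, CD2 (0.94) and GATA3 (0.74) foremost, and 5 lower, with CD7 at -0.73. CD3D (-0.34), at 401 to 410 FPKM with compound E and 512 to 518 FPKM with DMSO, was the most abundant of those called lower. Of 6 B-lineage markers MS4A1 and PAX5 had 0 counts in every library and CD79A stood at 8.58 to 9.26 FPKM with compound E and 8.18 to 9.34 FPKM with DMSO. The 6 myeloid markers summed to 0.536 to 0.720 FPKM with compound E and 0.667 to 0.795 FPKM with DMSO, with MPO at 0 counts. Mitochondrial genes took 4.605% to 5.216% of counts with compound E and 5.178% to 5.336% with DMSO, and the part of this difference in the results below was not tested.

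All 5 family genes were detected and tested, and 2 of them, IKZF1 and IKZF5, were called higher with compound E, against 18.9% of all tested genes. None was called lower, so the share called was 40%, beside 38.3% of all tested genes and 44.7% of tested protein-coding genes. The call of IKZF5 was lost in 7 of 18 alternative settings, given below. The changes were small, with both IKZF1 and IKZF5 at 1.13-fold, while the 95% interval of IKZF2 ran from -4.16% to 4.81%. In bulk samples more RNA per cell and more cells that express a gene cannot be told apart.

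IKZF1 encodes Ikaros, the founding member and a tumour suppressor in lymphoid leukaemia. It lies on chromosome 7 from 50304068 to 50405101, plus strand (ENSG00000185811, GRCh38). Its level was 43.8, 44.2 and 43.6 FPKM in the compound E libraries and 38.3, 38.7 and 38.4 FPKM in the DMSO libraries. Every compound E library was above every DMSO library, and the spread within each group was below 1 FPKM. The means were 43.9 ± 0.320 FPKM with compound E and 38.5 ± 0.161 FPKM with DMSO (SD, n = 3 each). IKZF1 rose, with a log2 fold change of 0.18 ± 0.0253 (SE; edgeR adjusted p = 1.79e-07).

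IKZF5 encodes Pegasus, the most divergent member, which is expressed in many tissues. It occupies bases 122990806 to 123008817 of chromosome 10, minus strand (ENSG00000095574). It stood at 7.33, 7.61 and 6.95 FPKM in the compound E libraries and at 6.92, 6.24 and 6.18 FPKM in the DMSO libraries. The groups did not overlap, although the lowest compound E library and the highest DMSO library nearly met. IKZF5 was called higher by edgeR, at a log2 fold change of 0.17 ± 0.0576 (SE; adjusted p = 0.0171). This call did not hold in DESeq2 (adjusted p = 0.0895) or in limma on the FPKM scale (0.0627 to 0.136), nor when compound E replicate 2 (0.0787), DMSO replicate 2 (0.0842) or DMSO replicate 3 (0.0859) was left out. Over all 18 alternatives its adjusted p was 0.00519 to 0.136.

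IKZF3 encodes Aiolos, which in B and T lymphocytes joins Ikaros in dimers. It lies on the minus strand of chromosome 17 from 39757715 to 39864188 (ENSG00000161405). Its level was 2.37, 2.29 and 2.37 FPKM with compound E and 2.16, 2.05 and 2.14 FPKM with DMSO. Again the groups did not overlap, but IKZF3 did not pass the test over all genes, with a log2 fold change of 0.14 ± 0.0657 (SE; edgeR adjusted p = 0.0912). Of all tested genes 46.8% had groups that did not overlap, and 3 of the 5 family genes did.

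IKZF2 encodes Helios, known from early haematopoietic cells and from regulatory T cells. On chromosome 2 it runs from 212999691 to 213152427, minus strand (ENSG00000030419). The level was 19.4, 18.6 and 17.6 FPKM in the compound E libraries and 18.2, 18.0 and 18.8 FPKM in the DMSO libraries. The compound E libraries lay on both sides of the DMSO libraries. The log2 fold change was 0.0032, with a 95% interval of -0.06 to 0.07 (edgeR adjusted p = 0.951).

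IKZF4 encodes Eos, described in mouse regulatory T cells as a partner of Foxp3. The gene lies on the plus strand of chromosome 12 from 56007659 to 56038435 (ENSG00000123411). It had the fewest counts of the family, 113, 136 and 115 with compound E and 142, 150 and 112 with DMSO. These corresponded to 0.903, 1.10 and 0.894 FPKM with compound E and 1.07, 1.10 and 0.941 FPKM with DMSO, and the groups overlapped. At this depth the log2 fold change of -0.12 had a 95% interval of -0.37 to 0.14 (edgeR adjusted p = 0.502), which covers changes from -22.4% to 9.85%. FOXP3 was at 0.460 to 0.761 FPKM with compound E and at 0.466 to 0.510 FPKM with DMSO. The summed level of the 4 regulatory T-cell markers was 0.749 to 1.18 FPKM with compound E and 1.88 to 1.94 FPKM with DMSO, and its part in the values of IKZF2 and IKZF4 was not tested. The markers called lower were TNFRSF18 (-1.66; 3 to 10 counts with compound E and 18 to 24 with DMSO) and IL10, FOXP3 did not pass, and CTLA4, at 3 to 8 counts with compound E and 4 to 7 with DMSO, was too low for the test.

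**Figure D1:**
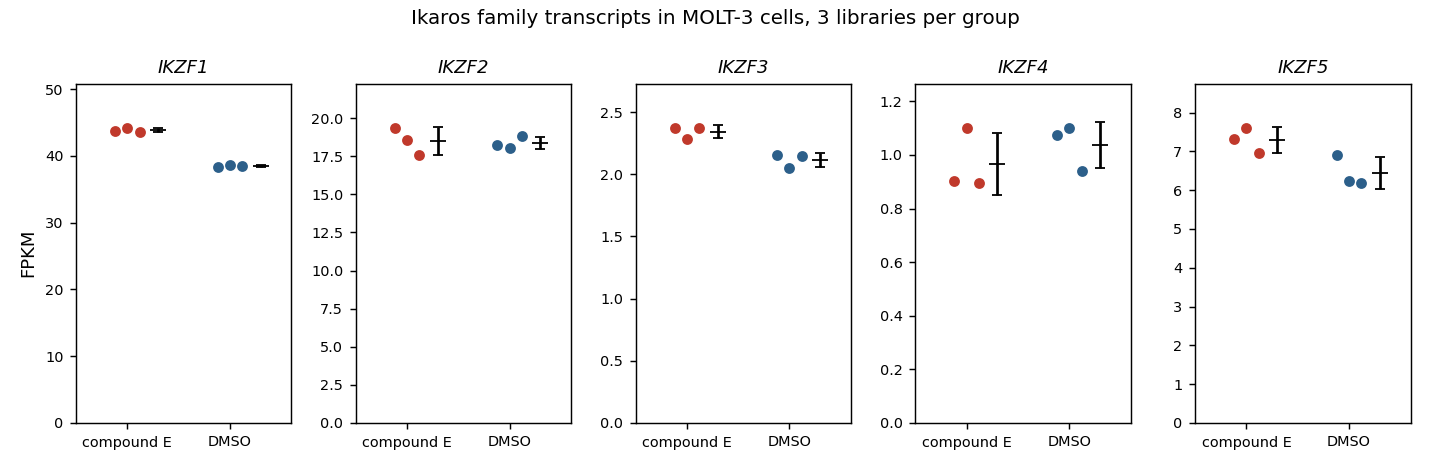
FPKM of the 5 Ikaros family genes in the 3 compound E libraries (red) and the 3 DMSO libraries (blue), each panel with its own axis from 0; black bars give the mean and SD. The compound E points of IKZF1 sit at 43.6 to 44.2 FPKM, above all DMSO points, while those of IKZF2 and IKZF4 overlap with DMSO.

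**Figure D2:**
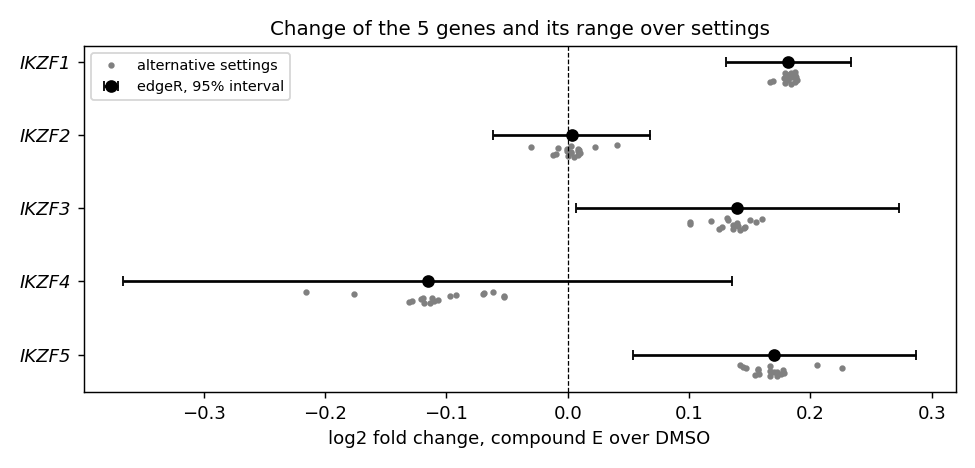
Log2 fold change of compound E over DMSO for each gene from edgeR with its 95% interval (black) and under the 18 alternative settings (grey). The values of IKZF1 stay between 0.17 and 0.19, and those of IKZF2 lie on both sides of 0.

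In both groups the order of the levels per length was IKZF1, IKZF2, IKZF5, IKZF3 and IKZF4, and no 2 neighbours in this order overlapped in any library. IKZF1 was the fifth highest of the genes that the authors' tables annotate as C2H2 zinc-finger factors, of which 504 were tested, and IKZF2 was at rank 30. IKZF3 and IKZF4 came at ranks 372 and 433. Set against all annotated transcription factors, IKZF5 came at rank 398 by mean FPKM. Of the 504 tested C2H2 factors 106 were called higher and 60 lower, a share of 32.9%, with a median log2 fold change of 0.04, while that of the 5 Ikaros genes was 0.14 and that of all tested genes was -0.0034.

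The summed level of the family was 73.7, 73.8 and 71.4 FPKM with compound E and 66.7, 66.1 and 66.5 FPKM with DMSO. IKZF1 made up 59.4%, 59.9% and 61.1% of this sum with compound E and 57.4%, 58.5% and 57.8% with DMSO. IKZF2 made up 26.3%, 25.2% and 24.6% with compound E and 27.3%, 27.3% and 28.3% with DMSO. The share of IKZF1 was thus higher and that of IKZF2 lower in every compound E library. A ratio within a library does not depend on how libraries are scaled, and the ratio of IKZF1 to IKZF2 was 2.26, 2.38 and 2.48 with compound E and 2.10, 2.14 and 2.04 with DMSO. The groups did not overlap, and the exact two-sided permutation test gave p = 0.1, the smallest that 3 against 3 libraries allow (0.333 after Benjamini-Hochberg adjustment over the 10 pairs of members). Of those 10 pairs, 3 had groups that did not overlap, the others being IKZF2 to IKZF3 (7.90 ± 0.433 with compound E and 8.68 ± 0.192 with DMSO) and IKZF4 to IKZF5 (0.132 ± 0.0112 with compound E and 0.161 ± 0.0133 with DMSO; SD, n = 3 each).

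Counts are summed over the exons of a gene. The annotation, GENCODE release 29, lists 23 transcripts of IKZF1, 14 of IKZF2, 17 of IKZF3, 13 of IKZF4 and 5 of IKZF5, and the counts do not say which of them were present. Full-length Ikaros and the short forms that lack DNA-binding fingers therefore cannot be told apart. Overlap with other genes was small. In IKZF1 110 of 10930 exon bases (1.01%) are shared with the antisense gene AC124014.1, in IKZF5 81 of 4934 (1.64%) with PSTK, which encodes a kinase for selenocysteine transfer RNA, and the other 3 share none. AC124014.1 had 76, 71 and 95 counts with compound E and 74, 80 and 61 with DMSO, few beside the 7342 to 9003 counts of IKZF1.

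The profiles most like those of the family were sought among protein-coding genes of at least 5 CPM, as the smallest root mean square difference in log2 CPM over the 6 libraries, after centring on the DMSO mean. Closest to IKZF1 were PDPK1, the kinase that activates AKT, FEN1, a nuclease of DNA replication, and GTPBP4, a GTPase of ribosome assembly, at 0.00434, 0.00701 and 0.0102. IKZF5 was followed most closely by 2 other zinc-finger genes, ZBTB8A and ZBTB41, at 0.0220 and 0.0221, and by the mitochondrial pyruvate carrier gene MPC1 at 0.0235. For IKZF3 they were FANCA, of the Fanconi anaemia repair pathway, NADK, the NAD kinase, and PIGT, of GPI anchor attachment, at 0.0113 to 0.0152. The values were 0.0105 to 0.0177 for IKZF2, with BMP2K, B4GALT6 and ZNF678, and 0.0487 to 0.0573 for IKZF4, with ELMOD3, TMEM186 and FAM241B. Each was the closest of 10112 candidates.

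Of 54 annotated genes with any part within 100 kb of a family gene 30 were tested, 8 were called higher and 5 lower, a share of 43.3% beside 38.3% of all tested genes. The nearest by distance between starts was ACADSB, a mitochondrial acyl-CoA dehydrogenase gene, which starts 162 bases from IKZF5 and is read in the opposite direction. ACADSB stood at 7.65, 7.14 and 7.24 FPKM with compound E and at 5.85, 5.83 and 5.97 FPKM with DMSO. It rose, as IKZF5 did by edgeR, with a log2 fold change of 0.31 ± 0.0509 (SE; edgeR adjusted p = 3.41e-06).

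IKZF2 has a comparable neighbour in AC079610.2, a lincRNA gene that starts 543 bases from it in the opposite direction. Its level was 5.44, 5.99 and 5.29 FPKM with compound E and 6.63, 9.27 and 7.30 FPKM with DMSO. AC079610.2 was called lower, at a log2 fold change of -0.48 ± 0.152 (SE; edgeR adjusted p = 0.0106). This call was lost with DESeq2 (adjusted p = 0.0900), with limma on unfiltered FPKM (0.0931) and without DMSO replicate 2 (0.145), over a range of 0.00509 to 0.145 in its alternatives. On chromosome 17 near IKZF3, ORMDL3, a regulator of sphingolipid synthesis, rose (0.21) and GSDMB, of the gasdermin family, fell (-0.27). Around IKZF4 6 genes were called higher and 2 lower. Those called higher included DGKA, a diacylglycerol kinase (0.45), ESYT1, a membrane tether (0.33), and the ribosomal protein gene RPS26 (0.27). The cell cycle kinase gene CDK2 (0.16) and RAB5B (0.12) were called higher too, and CDK2 shares 16.8% of its exon bases with other genes. RPS26 lost its call in 1 of 18 alternatives. Those called lower were another ribosomal protein gene, RPL41 (-0.24), and PYM1 (-0.15). PYM1 shares 14.6% of its exon bases with DGKA and lost its call in 6 of 18 alternatives. PA2G4, one of the genes called higher (0.09), shares 23.5% of its exon bases with other genes and lost its call in 10. Near IKZF5, AC073585.1 was called lower (-0.29) and lost its call in 8 of 17. None of the 3 tested neighbours of IKZF1 was called by edgeR. The 15 tested neighbours that were neither called nor overlapping had log2 fold changes of -0.51 to 0.38.

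**Figure D3:**
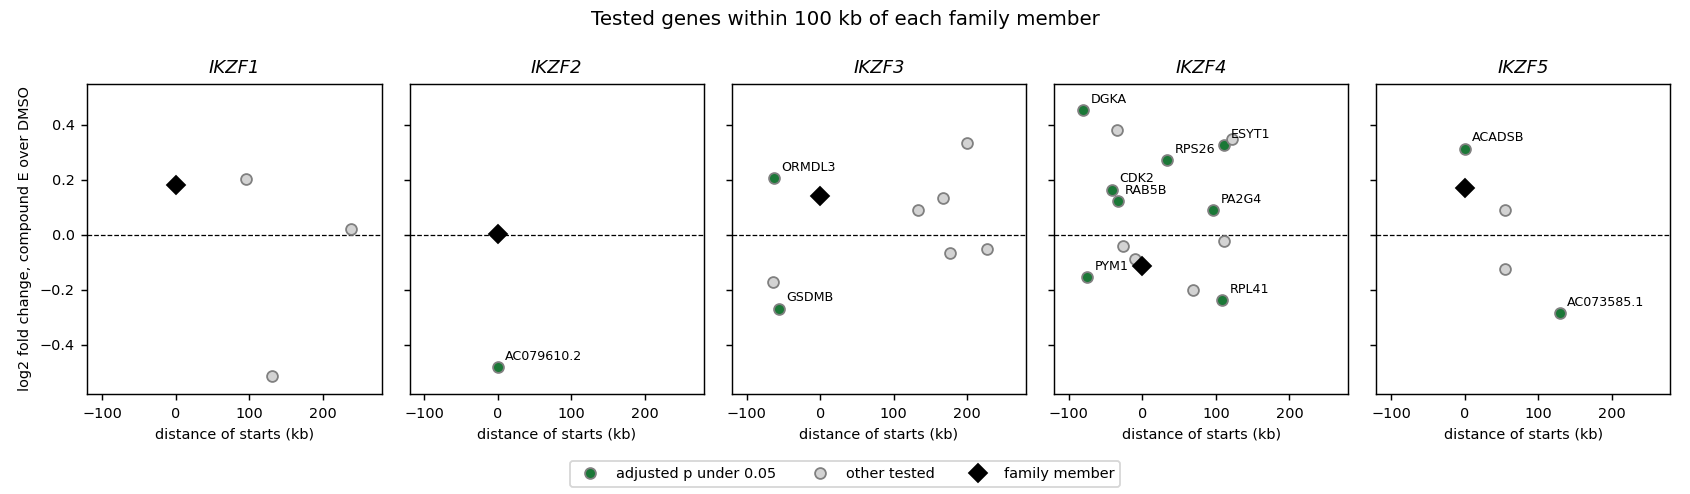
Log2 fold change of compound E over DMSO of tested genes within 100 kb of each Ikaros family gene, against the distance of their starts in kb, negative upstream of the family gene. Green points passed an adjusted p of 0.05, grey points did not, and the black diamond is the family gene; ACADSB at 0.31 lies next to IKZF5 at 0.17, and AC079610.2 at -0.48 next to IKZF2.

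Ikaros proteins act through partners, chiefly the NuRD complex of a remodelling helicase and histone deacetylases, and the corepressors SIN3 and CtBP. Of 18 such genes 17 were tested, and 9 were called higher and 1 lower, with a median log2 fold change of 0.10. This is a share of 58.8%, beside 38.3% of all tested genes and 44.7% of tested protein-coding genes. Over the 18 alternatives 7 to 10 of these genes were called. MBD2 (0.12) and MTA3 (0.10), both called higher, lost their calls in 14 and 6 of 18 alternatives, and HDAC2 (0.11) in 1. MTA2, a NuRD scaffold, had 68.7, 70.3 and 70.2 FPKM with compound E and 55.4, 54.8 and 54.1 FPKM with DMSO, and rose by 0.34 ± 0.0277 on the log2 scale (SE; edgeR adjusted p = 3.42e-13). SIN3A (0.20), the histone-binding subunit gene RBBP7 (0.21) and HDAC1 (0.17) also rose. The member called lower was CHD3, a helicase of the complex, at 24.4, 25.3 and 26.7 FPKM with compound E and 30.0, 30.6 and 30.2 FPKM with DMSO (-0.26). Its relative CHD4 was called higher (0.26), but 53.5% of its annotated exon bases are shared with other genes, so its count is uncertain. CTBP2, at no more than 15 counts in any library and with 34.7% of its exon bases shared, was not tested.

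Ikaros and Aiolos are marked for degradation by the cereblon ubiquitin ligase when a thalidomide-type drug is bound, casein kinase 2 phosphorylates Ikaros and lowers its binding to DNA, and protein phosphatase 1 reverses this. Of the 11 genes of these enzymes 3 were called higher and 5 lower, with a median of -0.06. The share called was 72.7%, beside 38.3% of all tested genes and 44.7% of tested protein-coding genes. PPP1CA, a catalytic subunit of the phosphatase, was called higher (0.29), with 26.9% of its exon bases shared with other genes, whereas PPP1CC, another such subunit, fell (-0.23). CUL4B (-0.23) and CUL4A (-0.15), the ligase scaffolds, fell and the adaptor DDB1 rose (0.12). Of the casein kinase 2 genes CSNK2B was called higher (0.29), with 37.1% of its exon bases shared, and lost its call in 1 of 18 alternatives. CSNK2A2 was called lower (-0.12), a call lost in 5 of 18 alternatives, and CSNK2A1 (-0.06) did not pass. CRBN, cereblon itself, was at 5.25, 5.34 and 5.09 FPKM with compound E and 5.60, 5.89 and 6.15 FPKM with DMSO. It was called lower by edgeR (-0.18; adjusted p = 0.00461), a call lost with DESeq2 (adjusted p = 0.0506) and with limma on FPKM (0.0511 to 0.0868).

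The factor that shares the Ikaros core, RBPJ, was at 10.7, 11.5 and 10.5 FPKM with compound E and 10.9, 10.1 and 10.5 FPKM with DMSO. The groups overlapped, and the log2 fold change of 0.05 did not pass (edgeR adjusted p = 0.370). Of 12 genes of the RBPJ complex 4 were called higher and 2 lower. This share of 50% stands beside 38.3% of all tested genes and 44.7% of tested protein-coding genes. Those called higher included the corepressor SPEN (0.13) and the coactivators EP300 (0.15) and MAML1 (0.17). Those called lower were CIR1 (-0.31) and MAML3 (-0.54). MAML3 lost its call with DESeq2 (adjusted p = 0.0592) and with limma on unfiltered FPKM (-0.19; 0.165), and CIR1 lost its call in the second of these (0.0937). RBPJ was thus expressed below IKZF1 and IKZF2 per length in all 6 libraries.

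Most NOTCH-responsive genes had larger changes than any Ikaros gene. Of 14 listed 10 were tested, and 8 were called lower and 1, NOTCH1, higher, with a median log2 fold change of -1.81. The share called was 90%, beside 38.3% of all tested genes. HES4, whose promoter is shown above, was at 1.70, 3.11 and 2.32 FPKM with compound E and 66.1, 75.0 and 70.7 FPKM with DMSO. HES1 was at 4.22, 3.82 and 4.88 FPKM with compound E and 17.8, 19.2 and 20.5 FPKM with DMSO. Both fell in every compound E library by more than the spread within a group. DTX1, NOTCH3, IGF1R, IL7R, MYC and PTCRA were the others called lower. HES5 and HEY2, the other genes with TGGGAA in their window, did not exceed 1 and 3 counts, too few for a test.

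Genes that Ikaros factors are known to bind or control in lymphocytes included 8 called higher and 3 lower among 16 tested of 20 listed. The share called was 68.8%, beside 38.3% of all tested genes and 44.7% of tested protein-coding genes, and the median log2 fold change was 0.21. DNTT, the terminal transferase that adds bases at receptor gene joints, was at 146, 151 and 143 FPKM with compound E and 111, 105 and 108 FPKM with DMSO (log2 fold change 0.43). CD4, a coreceptor gene with an Ikaros-bound silencer in mouse, was at 3.88, 3.82 and 4.12 FPKM with compound E and 1.66, 1.53 and 1.85 FPKM with DMSO (1.23). RAG1 (1.53) and RAG2 (0.79), the recombinase genes, rose too, as did the other coreceptor genes CD8B (1.71) and CD8A (0.30). RAG2 shares 26% of its exon bases with other genes, chiefly RAG1. BCL2L1, a survival gene, and VPREB1 were called higher as well (0.39 and 0.73), although BCL2L1 shares 43% of its exon bases with ABALON. BCL2, another survival gene, fell (-0.31), as did CDKN1A, a cell cycle inhibitor (-0.76). IL10, a regulatory T-cell marker, was called lower on few counts, 1, 2 and 2 with compound E and 17, 27 and 19 with DMSO. CDK6, a kinase gene that Ikaros represses in leukaemia cells, stayed within 203 to 209 FPKM with compound E and 207 to 211 FPKM with DMSO and did not pass (-0.03; edgeR adjusted p = 0.329). IRF4, TBX21, IL2 and IFNG were not tested because of low counts, with IFNG at 0 in every library.

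Other C2H2 factors of lymphoid cells, 12 tested of 18, gave 6 called higher and 1 lower, with a median of 0.02. BCL11B, needed for T-lineage commitment, was at 38.2, 37.5 and 38.7 FPKM with compound E and 32.7, 32.0 and 32.1 FPKM with DMSO, and rose by 0.23 on the log2 scale. IKZF1 had 0.18, and in both genes every compound E library was above every DMSO library. KLF13 (0.32), ZBTB7A (0.30) and BCL6 (0.55) also rose, although BCL6 did not pass in limma on FPKM without a filter (adjusted p = 0.0559), and ZNF521, known from stem and progenitor cells, fell (-0.79). BCL11A (0.21) and ZEB1 (0.10), also called higher, lost their calls in 3 and 11 of 18 alternatives. The share called among these C2H2 factors was 58.3%. Like the shares of the other lists, it is a description beside 38.3% of all tested genes and 44.7% of tested protein-coding genes.

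**Figure D4:**
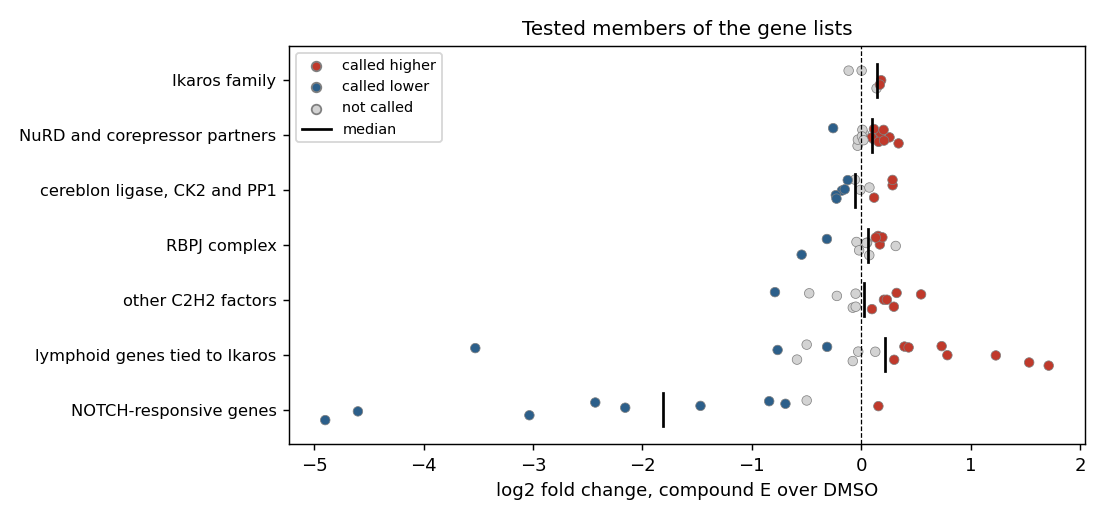
Log2 fold change of compound E over DMSO of the tested members of 7 gene lists, with genes called higher in red, called lower in blue and others in grey; black lines are medians. The Ikaros genes lie between -0.12 and 0.18, while NOTCH-responsive genes reach -4.90.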

How the data were processed

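Per the labels' protocols, messenger RNA was captured on poly-T beads, and the library kit was NEBNext Ultra. Per the submitters' processing notes, HISAT2 2.0.5, featureCounts 1.5.0-p3 and DESeq2 1.16.1 were used, with no role or order given. The sources used here give no genome build, annotation, strand use or handling of reads with several matches. All 58735 gene identifiers had the start, end, strand and name of GENCODE release 29, so coordinates are on GRCh38. The deposited count table holds whole-number, unnormalised read counts per gene from the authors. The deposited FPKM equal count over gene length and over a divisor per library, the product of its size factor and the geometric mean of all totals.

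Counts were tested in R 4.3.3 with edgeR 4.0.16 (filterByExpr, TMM, quasi-likelihood F-test, treatment as the only term), adjusted over 16926 genes. The standard error is the log2 fold change over the square root of F. The analysis was also run on simulated counts. Every change set in them was larger than those of the family genes, so recovery of such small changes was not tested. Alternatives used DESeq2 1.42.0, limma 3.58.1, other scalings and filters, FPKM, the replicate block and left-out libraries. Figures were drawn with matplotlib 3.10.9.

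The family members and gene lists were chosen with earlier results of these data known. By a rule, the text names all members, up to 4 tested genes of each list with the smallest p, tested neighbours (uncalled ones mostly by range) and the 3 closest profiles of each member. Other genes named were chosen after their values were seen. Promoter sequences are from RefSeq. No library was left out. Some items of the lists are not reported here.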

Additional observations from a re-analysis of the deposited data

How the results depend on the processing

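The changes of IKZF1, IKZF3 and IKZF4 kept their direction and their side of the threshold in all 18 alternatives, at log2 fold changes of 0.17 to 0.19, 0.10 to 0.16 and -0.22 to -0.05. IKZF2, near 0, changed sign with upper-quartile scaling (-0.012), the stricter filter (-0.0094) and protein-coding genes alone (-0.00039), and with libraries left out it ranged from -0.030 to 0.040. IKZF5 kept its direction but lost its call with DESeq2 (0.18), with limma on log2(FPKM + 1) (0.16, also unfiltered) and on log2(FPKM + 0.1) (0.18), and ranged from 0.14 to 0.23 with libraries left out; the cause was not tested. Limma on unfiltered FPKM, which tests more genes, called 4002 genes in place of 6484, 5 in place of 8 of the cereblon, casein kinase and phosphatase genes and 4 in place of 7 of the other C2H2 factors. Other counts of called genes stayed within 1.5 times, and the ratio of IKZF1 to IKZF2 kept its direction without each library, at log2 changes of 0.15 to 0.21. The alternatives were also run for 66 other genes, of which 50 kept direction and call throughout and none changed sign. These were list genes called or among the 4 with the smallest p, and neighbours called or overlapping a member. Cell-type markers outside those lists, RBPJ, CDK6 and the genes of closest profile were not among them.

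Replicate numbers left no visible pairing in the counts. Deviations of same-numbered libraries from their group means correlated at 0.01, -0.02 and 0.00012, and not every library correlated best with its own number. Such values cannot show whether same-numbered libraries shared a culture. With the replicate block edgeR called 6138 genes, and the members gave 0.18, 0.0027, 0.14, -0.11 and 0.17 for IKZF1 to IKZF5 with the calls of IKZF1 and IKZF5 kept. Depth limits IKZF4 most, with 112 to 150 counts per library.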
